A study of Mus musculus with 15 samples.

Results

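The 39 genes described here are a list of the amino acid response, amino acid transport and serine synthesis, taken from the expression table by gene symbol with no threshold on their values. The list was chosen with earlier results of these data known, so its shares set beside a background describe this list only. All 39 had an entry in the expression table, which holds 23284 entries. They fall into 7 ATF4 factors and stress outputs, 11 amino acid and folate enzymes, 9 transporters and 12 cytosolic tRNA synthetases. Mammalian cells read a shortage of amino acids through a kinase that phosphorylates the initiation factor eIF2. This phosphorylation lowers general translation and raises translation of the mRNA for the transcription factor ATF4. ATF4 then activates genes for amino acid transporters, for enzymes that make serine, asparagine, proline and cysteine, and for the synthetases that load amino acids onto tRNA. Activated CD8 T cells are known for a large demand on these routes, above all on uptake of neutral amino acids and on serine-derived carbon units for nucleotide synthesis.

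The series holds RNA-seq of mouse CD8 T cells that all carry the OT-I transgenic T cell receptor, as FPKM (fragments counted per transcript length and per library size), in 15 libraries of 5 sorted populations. Each population has 3 libraries, which the design text calls technical replicates of that population's RNA, so the SDs and p-values below measure only the spread between libraries and not between cultures or animals. CD8 T cells were mixed with bone marrow-derived dendritic cells carrying SIINFEKL peptide, the target of this receptor, and grown for 14 days in medium with added non-essential amino acids. The design compares cells grown in a cocktail meant to induce memory with cells grown in IL-2 and with naive cells.

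The cocktail held the cytokines IL-7 and IL-21, the glucose analog 2-deoxyglucose, which blocks glycolysis, and TWS119, an inhibitor of the kinase GSK-3. Its cells were sorted on CD44, which is high after activation, and on CD62L, a lymph node homing receptor, into CD44loCD62L+, CD44+CD62L+ and CD44+CD62L- populations. IL-2 cells, grown for the same 14 days, were sorted as CD44+CD62L-. Naive OT-I cells had 0 days in culture and are given as CD44loCD62L+ in the sample labels and as CD44-CD62L+ in the design text. Each population is thus 1 sort from 1 culture condition, and cytokine, 2-deoxyglucose and TWS119 effects cannot be told apart.

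All 6 CD8 T cell marker genes examined were at or above 1 FPKM in every population, but their levels differed. Their summed FPKM was 2439 to 2445 in cocktail CD44loCD62L+, 2171 to 2182 in cocktail CD44+CD62L+ and 2387 to 2396 in cocktail CD44+CD62L- libraries. It was 1853 to 1875 in IL-2 and 3195 to 3206 in naive libraries. Cd8b1 averaged 263 FPKM in IL-2 and 1059 FPKM in naive cells. Summed FPKM of 18 dendritic cell and macrophage markers was 274 to 283 in cocktail CD44loCD62L+, 281 to 290.4 in cocktail CD44+CD62L+, 308 to 317 in cocktail CD44+CD62L-, 201 to 204 in IL-2 and 328 to 332 in naive libraries. Single markers in these sums went opposite ways. Batf3 averaged 24.9 FPKM in IL-2 and 0.136 FPKM in naive cells, and Cd74 averaged 0.559 and 57.3 FPKM in the same populations. Cst3 averaged 141 FPKM in cocktail CD44+CD62L+ and 64.2 FPKM in naive cells, and H2-Aa averaged 1.10 and 21.8 FPKM in these. Cd209a, a dendritic cell marker, was listed at 0 in the 4 cultured populations. Summed FPKM of 6 B cell markers was 2.07 to 6.75 in cultured and 40.2 to 41.7 in naive libraries, with Ms4a1 and Pax5 listed at 0 in every cultured population. For 7 erythroid, platelet and neutrophil markers the sum was 0.129 to 5.39 in cultured and 24.5 to 28.5 in naive libraries. For 3 CD4 T cell markers it was 7.56 to 9.49 in cocktail, 16.0 to 16.9 in IL-2 and 0.689 to 0.711 in naive libraries. For 3 NK cell markers it stayed between 0.157 and 1.89 in all libraries. Summed FPKM of 20 proliferation genes was 1122 to 1127 in cocktail CD44loCD62L+, 2634 to 2651 in cocktail CD44+CD62L+, 2269 to 2275 in cocktail CD44+CD62L-, 2930 to 2949 in IL-2 and 356 to 361 in naive libraries, so this sum moved with several results below, and its part in them was not tested. Bulk values cannot separate fewer cells with a transcript from less of it per cell. Depth is unknown, but the libraries of a population agreed closely: over 164 member levels of at least 5 FPKM the coefficient of variation had a median of 1.44% and a maximum of 9.17%.

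Of the 39 genes, 38 reached a mean of 1 FPKM in at least 1 population and were tested among 11242 genes. Slc7a11, the cystine transporter subunit, did not, with a highest mean of 0.129 FPKM in cocktail CD44+CD62L- cells. As a description of the levels, 22 of the 39 genes had their highest mean in IL-2 cells, 7 in cocktail CD44+CD62L-, 5 in cocktail CD44+CD62L+, 3 in naive and 2 in cocktail CD44loCD62L+ cells. The lowest mean was in naive cells for 29 genes. Shares of highest and lowest means over all tested genes were not computed. In 27 of the 39 genes all cultured libraries lay above all naive libraries, against 32.1% of tested genes. In 16 of the 39 genes the libraries followed 1 order without overlap, IL-2 above both cocktail CD44+ populations, these above cocktail CD44loCD62L+, and naive lowest, against 10.8% of all tested genes. The 16 were Atf4, Sesn2, Psat1, Phgdh, Psph, Shmt1, Aldh18a1, Slc7a5, Aars, Gars, Nars, Yars, Iars, Lars, Eprs and Cars. In 9 of the 39 genes all 9 cocktail libraries lay above all 3 IL-2 libraries, against 33.4% of tested genes, and these were Atf5, Ddit3, Trib3, Mthfd1l, Slc7a11, Slc1a5, Slc38a2, Sars and Wars.

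**Figure D1:**
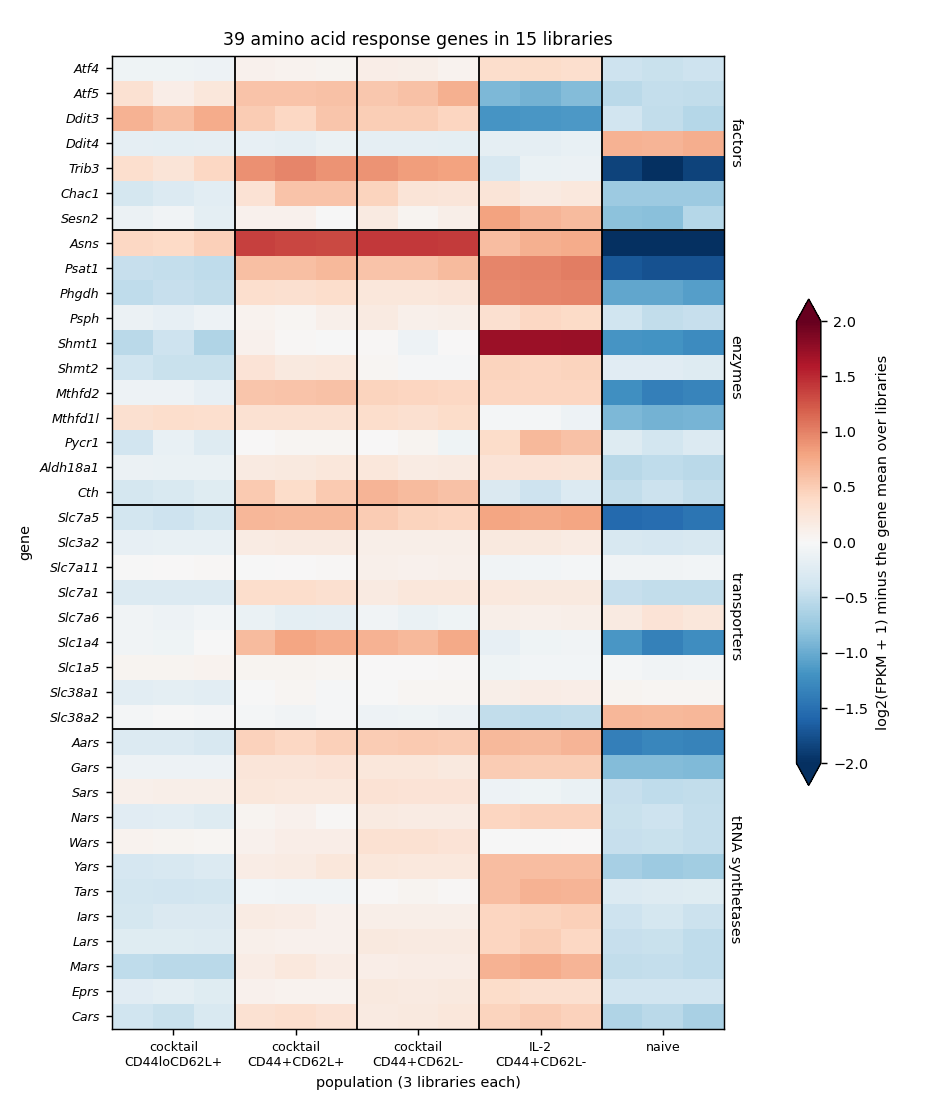
Heat map of the 39 genes in 15 libraries. Colour is log2(FPKM + 1) minus the gene's mean over the libraries, with the scale limited to 2 in either direction, and black lines separate the classes and populations; most rows are lowest in the 3 naive libraries, and the 3 libraries of a population look alike.

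ATF4 binds the C/EBP-ATF response element as a dimer with a C/EBP factor, and the element was searched as TGATGNAA on both strands in the 300 bases from 250 before to 50 after each start in RefSeq promoters (GRCm38.p6). Of the 39 genes, 30 matched an entry in that table, and Cth, Slc7a5, Slc1a5, Slc38a1, Nars, Wars, Lars, Mars and Cars had none there. The element stood in 11 of the 30 (36.7%), against 4.51% of all genes in the table and 2.78% of the 8009 tested genes that matched it. The list was drawn up from genes of this response, so the share describes the list. The 11 were Trib3, Chac1, Asns, Pycr1, Slc7a11, Slc1a4, Aars, Gars, Yars, Tars and Iars: 2 of 7 factors, 2 of 10 enzymes, 2 of 6 transporters and 5 of 7 synthetases. None of 8 other cytosolic synthetase and scaffold genes and none of 14 mitochondrial synthetase genes held it. The E-box CACGTG, which MYC and related factors can bind, stood in 4 of the 30 (13.3%), against 8.09% of all genes and 12.2% of tested genes. No CACGTG match overlapped a TGATGNAA match in these promoters.

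Of the genes called higher or lower among cultured populations, by the rule given with the first comparison below, only Trib3 held the element. Atf5, Ddit3, Shmt1 and Psat1 had no match, and Slc7a5 had no promoter entry. The sites below are those of Trib3 and of some other listed genes with the element. Each is written on the gene's strand, 5′ to 3′, with the element in capitals; where it ends in CATCA, the TGATGNAA match is on the other strand. The asparagine synthetase site at chr6:7693210-7693262 (minus strand) has the element from 23 bases before the start.
Asns: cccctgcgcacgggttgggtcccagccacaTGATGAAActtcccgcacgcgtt
The site of Trib3, a pseudokinase that holds back ATF4 and its partners, lies at chr2:152344028-152344057 (minus strand), just past the start.
Trib3: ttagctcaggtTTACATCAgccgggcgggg
The site of Chac1, an enzyme that breaks down glutathione, lies at chr2:119351019-119351086 (plus strand), with the element from 193 bases before the start.
Chac1: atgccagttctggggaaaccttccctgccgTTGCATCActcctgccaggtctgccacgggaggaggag
The site of Slc1a4, a transporter of alanine, serine and cysteine, lies at chr11:20332710-20332747 (minus strand), with the element across the start.
Slc1a4: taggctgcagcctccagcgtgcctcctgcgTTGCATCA
The alanyl-tRNA synthetase site at chr8:111033700-111033767 (plus strand) has the element from 112 bases before the start, and a second match (TTTCATCA, not shown) lies just past the start.
Aars: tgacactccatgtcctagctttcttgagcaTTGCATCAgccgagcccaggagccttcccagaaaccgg
The glycyl-tRNA synthetase site lies at chr6:55037941-55038000 (plus strand), with the element from 30 bases before the start.
Gars: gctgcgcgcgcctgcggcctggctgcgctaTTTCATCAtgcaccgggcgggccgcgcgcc
The tyrosyl-tRNA synthetase site lies at chr4:129189895-129189924 (plus strand), just past the start.
Yars: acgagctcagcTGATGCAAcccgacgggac
The sites shown for Chac1, Slc1a4 and Aars carry the same 8 bases, TTGCATCA. Asns and Yars have the element in the opposite orientation.

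The first question was how cocktail CD44+CD62L- cells differ from IL-2 cells sorted on the same 2 markers. The stress factors Atf5, Ddit3 and Trib3 rose and the cytosolic folate enzyme Shmt1 fell in the cocktail. A gene was called when its adjusted p (limma on log2(FPKM + 1), Benjamini-Hochberg over 11242 genes) was under 0.05 and its log2 fold change was at least 1 in size. On this rule 3 of 38 genes were higher, against 4.64% of all tested genes, and 1 was lower, against 3.2%. With the adjusted p alone, 11 were higher (background 40.6%), 23 were lower (background 43.7%) and 4 were neither; after quantile normalization the split was 15 higher and 19 lower. The median log2 fold change of the 38 genes was -0.14, against -0.01 over all tested genes. Of 20 proliferation genes, 19 were lower and 1 higher by adjusted p alone (median -0.40), and their part in the result was not tested. Of 12 tested dendritic cell and macrophage markers, 5 were called higher and 1 lower in the same comparison. Lyz2 was at 21.3 FPKM in cocktail CD44+CD62L- and 0.427 FPKM in IL-2 cells, and Fcer1g went the other way at 3.35 and 15.9 FPKM. The part of these markers in the result was not tested.

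The second question was how the CD44loCD62L+ cells of the cocktail differ from its CD44+CD62L+ cells. Most of the list was lower in the CD44lo cells, with Psat1 of serine synthesis and the neutral amino acid transporter Slc7a5 past the fold threshold. On the call rule 0 genes were higher (background 0.418%) and 2 were lower (background 2.26%). By limma's adjusted p alone, 2 were higher (background 36.5%), 32 were lower (background 36.9%) and 4 were neither, and the same numbers had an unadjusted p under 0.05. Quantile normalization gave 5 higher and 31 lower. The median log2 fold change was -0.35, against 0 over all tested genes. The 20 proliferation genes were lower in the same libraries, as given above.

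The CD44+CD62L+ and CD44+CD62L- cells of the cocktail were close, with log2 fold changes between -0.18 (Wars) and 0.23 (Shmt2). By limma, no gene of the list was called higher (background 0.0356%) or lower (background 0.0801%). By adjusted p alone, 10 were higher (background 24.1%), 9 were lower (background 24.3%) and 19 were neither, and 11 and 11 had an unadjusted p under 0.05.

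Against naive cells all 4 cultured populations were higher in much of the list; these 4 comparisons share the 3 naive libraries, so each is given by itself. In cocktail CD44loCD62L+ cells 9 genes were called higher (background 11.6%) and 0 lower (background 6.11%), with a median log2 fold change of 0.36. They were Ddit3, Trib3, Asns, Psat1, Mthfd2, Mthfd1l, Slc7a5, Slc1a4 and Aars. In cocktail CD44+CD62L+ cells 13 were called higher (background 14.4%) and 0 lower (background 8.44%), with a median of 0.76. They were Atf5, Trib3, Chac1, Asns, Psat1, Phgdh, Shmt1, Mthfd2, Mthfd1l, Slc7a5, Slc1a4, Aars and Gars. In cocktail CD44+CD62L- cells 14 were called higher (background 13.9%), the 13 just named and Cth, and 0 lower (background 8.59%), with a median of 0.76. In IL-2 cells 14 were called higher (background 17.6%) and Slc38a2 alone lower (background 13.7%), with a median of 0.85. The 14 were Trib3, Sesn2, Asns, Psat1, Phgdh, Shmt1, Mthfd2, Slc7a5, Slc1a4, Aars, Gars, Yars, Mars and Cars. Several of these calls were lost under other settings. With 5 FPKM added before the logarithm Slc1a4 was called in none of the 4 comparisons, Slc7a5 and Aars not in cocktail CD44loCD62L+, Atf5, Chac1 and Shmt1 not in either cocktail CD44+ population, Cth not in cocktail CD44+CD62L-, and Trib3, Sesn2 and Cars not in IL-2 cells. Quantile normalization removed the calls of Slc1a4 in cocktail CD44loCD62L+ and IL-2 cells, of Atf5 in both cocktail CD44+ populations, and of Chac1, Cth and Gars in cocktail CD44+CD62L- cells.

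By limma's adjusted p alone, 30 genes were higher and 6 lower than naive in cocktail CD44loCD62L+ cells (background 43.2% and 45.4%). The counts were 34 and 4 in cocktail CD44+CD62L+ cells (background 45.2% and 45.5%), 34 and 3 in cocktail CD44+CD62L- cells (background 45.1% and 45.5%) and 32 and 5 in IL-2 cells (background 46.9% and 44.9%). Unadjusted p-values under 0.05 gave the same counts in all 4.

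**Figure D2:**
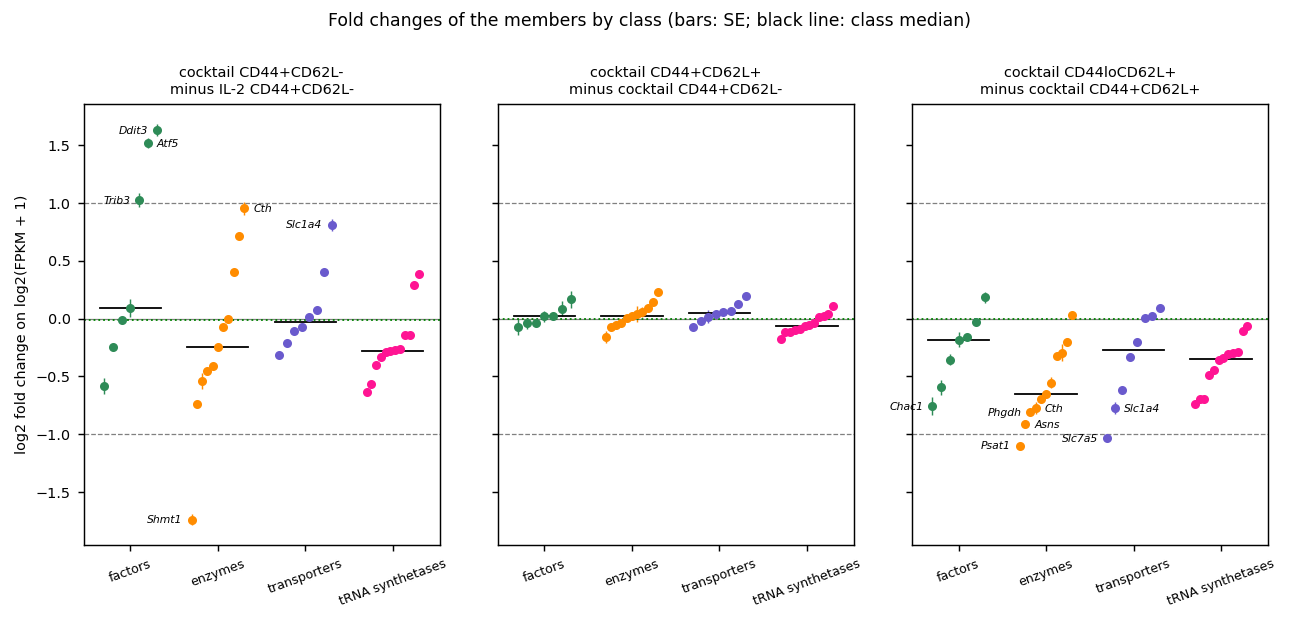
Log2 fold changes on log2(FPKM + 1) for each gene by class in the 3 comparisons among cultured cells, with bars for the standard error and a black line for the class median. Dashed lines mark the threshold of 1 and the dotted line the median of all tested genes; Atf5, Ddit3 and Trib3 stand above 1 and Shmt1 below -1 for cocktail CD44+CD62L- against IL-2 cells, and Psat1 and Slc7a5 stand just below -1 for cocktail CD44loCD62L+ against CD44+CD62L+ cells.

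Of the 7 ATF4 factors and stress outputs, the factor mRNAs did not share 1 order. Atf4 itself (chr15:80255184-80257541, plus strand), controlled mostly at translation, was at 112, 112 and 111 FPKM in cocktail CD44loCD62L+, 126, 125 and 123 FPKM in cocktail CD44+CD62L+ and 130.2, 129 and 124 FPKM in cocktail CD44+CD62L- libraries. It was at 151, 153 and 149.9 FPKM in IL-2 and 88.5, 87.3 and 89.1 FPKM in naive libraries. Only the 2 cocktail CD44+ populations overlapped. Its log2 fold change was -0.24 (SE 0.0155) in cocktail CD44+CD62L- against IL-2 cells, with an adjusted p of 4.62e-09 by limma, below the fold threshold.

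Atf5 (chr7:44812256-44816658, minus strand), a related factor translated under the same stress, had 7.62, 6.68 and 7.14 FPKM in cocktail CD44loCD62L+, 9.34, 9.38 and 9.47 FPKM in cocktail CD44+CD62L+ and 9.20, 9.50 and 10.4 FPKM in cocktail CD44+CD62L- libraries. The IL-2 libraries had 2.73, 2.65 and 2.83 FPKM, and the naive libraries 3.81, 4.01 and 3.95 FPKM. Every cocktail library lay above every naive library, and IL-2 cells were lowest, the reverse of the order of Atf4 for these 2 cultures. Atf5 rose by 1.52 on the log2 scale (SE 0.0449, adjusted p 1.32e-12 by limma) in cocktail CD44+CD62L- against IL-2 cells. Its exons share 82 bases, 4.11% of them, with Nup62 on the other strand, and strand use in counting is not known. With 5 FPKM added before the logarithm, which shrinks the fold of low genes, the change was 0.93 and the call was lost.

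Ddit3 (chr10:127290774-127296288, plus strand) encodes CHOP, a factor linked to cell death under prolonged stress. It had 40.9, 38.3 and 42.2 FPKM in cocktail CD44loCD62L+, 35.7, 33.5 and 37.2 FPKM in cocktail CD44+CD62L+ and 35.5, 35.3 and 34.0 FPKM in cocktail CD44+CD62L- libraries. IL-2 libraries had 10.4, 10.6 and 10.7 FPKM and naive libraries 18.8, 17.5 and 16.4 FPKM. The cocktail CD44loCD62L+ libraries were the highest and did not overlap with any others, and the IL-2 libraries were below the naive ones. The rise was 1.63 on the log2 scale (SE 0.0483, adjusted p 1.33e-12, limma) in cocktail CD44+CD62L- against IL-2 cells. In cocktail CD44loCD62L+ against CD44+CD62L+ cells it was 0.19 (SE 0.0483, adjusted p 0.00366), and Ddit3 was the only factor of the 7 past the adjusted p in that direction. Exons of Ddit3 and of its neighbour Mars, which is on the other strand, share 68 bases.

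Trib3 (chr2:152337422-152344032, minus strand) had 9.05, 8.57 and 9.64 FPKM in cocktail CD44loCD62L+, 14.0, 14.7 and 13.9 FPKM in cocktail CD44+CD62L+ and 13.8, 13.2 and 12.9 FPKM in cocktail CD44+CD62L- libraries. In IL-2 libraries it had 5.41, 6.32 and 6.41 FPKM, and in naive libraries 1.22, 0.943 and 1.21 FPKM. No 2 populations overlapped, and all cultured cells stood above naive cells. The log2 fold change against naive was 2.25 in cocktail CD44loCD62L+ (adjusted p 4.09e-13), 2.84 in cocktail CD44+CD62L+ (2.45e-14), 2.76 in cocktail CD44+CD62L- (3.44e-14) and 1.73 in IL-2 cells (4.52e-12), all by limma. In cocktail CD44+CD62L- against IL-2 cells it was 1.03 (SE 0.0633, adjusted p 3.35e-09). That call sat at the fold threshold and was lost without IL-2 replicate 1 (0.96) and with 5 FPKM added (0.73).

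The other 3 outputs were Sesn2, Ddit4 and Chac1. Sesn2, an inhibitor of mTORC1 and a leucine sensor, averaged 4.86 ± 0.247 FPKM in cocktail CD44loCD62L+, 5.64 ± 0.242 in cocktail CD44+CD62L+, 5.97 ± 0.310 in cocktail CD44+CD62L-, 9.45 ± 0.616 in IL-2 and 2.85 ± 0.407 in naive cells (SD, n = 3 each). Its log2 fold change in cocktail CD44+CD62L- against IL-2 cells was -0.58, opposite in sign to Atf5, Ddit3 and Trib3. Ddit4, another mTORC1 inhibitor, averaged 65.6 to 67.0 FPKM in the 4 cultured populations and 122 ± 1.85 FPKM in naive cells. Chac1 was listed at 0 in all naive libraries and reached means of 0.359 FPKM in cocktail CD44loCD62L+, 1.30 in cocktail CD44+CD62L+, 1.05 in cocktail CD44+CD62L- and 0.917 in IL-2 cells. At that level the cocktail CD44+CD62L- and IL-2 libraries overlapped (adjusted p 0.259, limma).

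**Figure D3:**
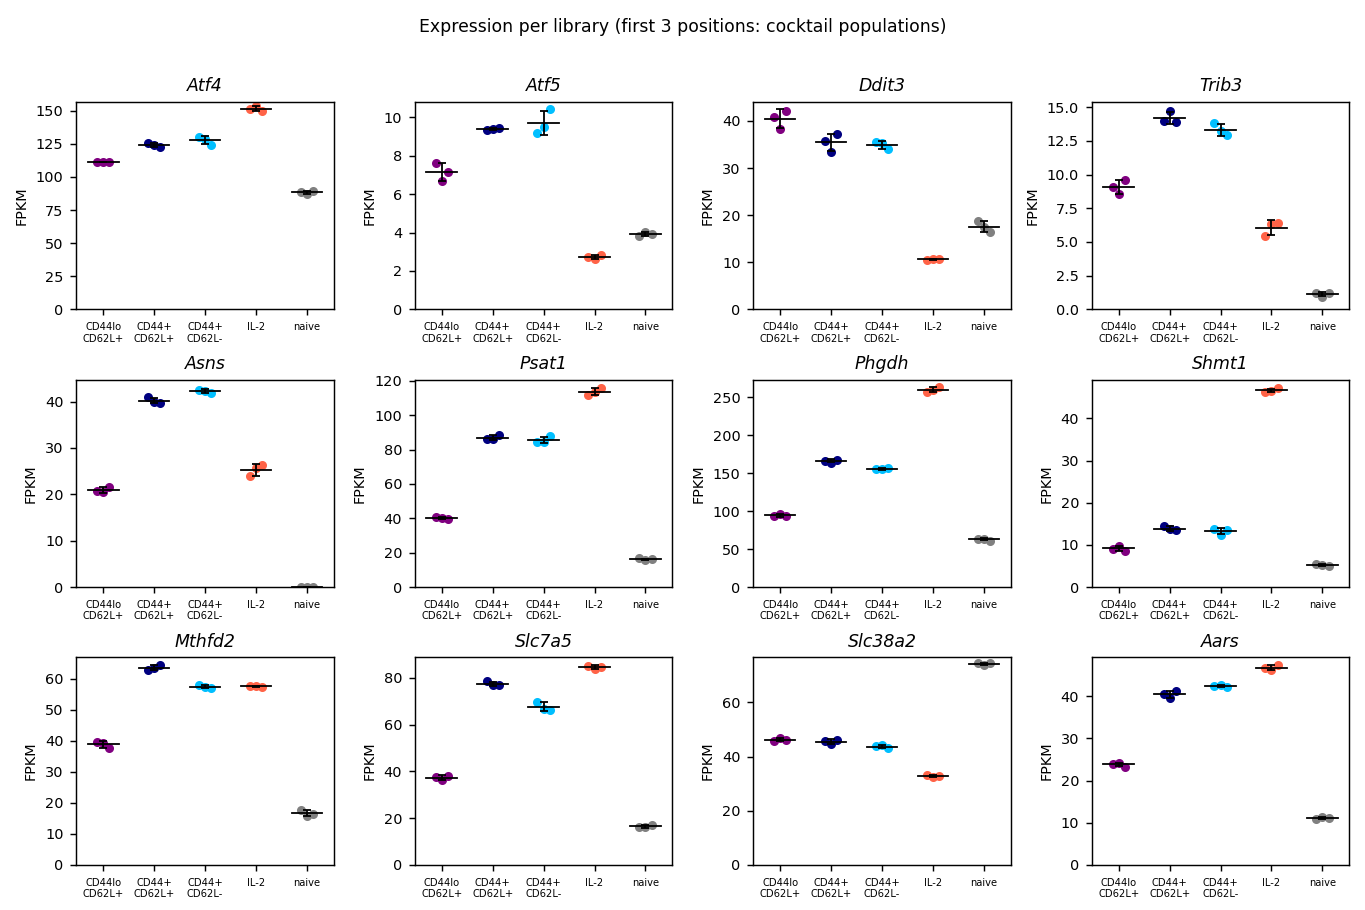
FPKM of 12 of the genes in each of 15 libraries, with the 3 cocktail populations first, points for libraries and a bar for the mean ± SD of 3 libraries per population. Asns and Trib3 are highest in the cocktail CD44+ populations, Phgdh and Shmt1 are highest in IL-2 cells, and Ddit3 is highest in cocktail CD44loCD62L+ cells.

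Asparagine synthetase had the largest fold change against naive cells of all 38 genes in each cultured population. Asns (chr6:7675169-7693254, minus strand) had 20.7, 20.4 and 21.6 FPKM in cocktail CD44loCD62L+, 40.9, 40.0 and 39.8 FPKM in cocktail CD44+CD62L+ and 42.6, 42.3 and 41.8 FPKM in cocktail CD44+CD62L- libraries. IL-2 libraries had 23.9, 25.8 and 26.3 FPKM, and naive libraries 0.121, 0.119 and 0.0999 FPKM. The populations did not overlap, and naive cells were near 0. Against naive the log2 fold change was 4.30 in cocktail CD44loCD62L+ (adjusted p 2.4e-19), 5.21 in cocktail CD44+CD62L+ (2.07e-20), 5.28 in cocktail CD44+CD62L- (1.94e-20) and 4.56 in IL-2 cells (5.82e-20), by limma; the added 1 FPKM makes these smaller than the ratio of the levels. In cocktail CD44+CD62L- against IL-2 cells the log2 fold change was 0.72 (SE 0.0307, adjusted p 6.58e-11), and in cocktail CD44loCD62L+ against CD44+CD62L+ cells -0.91 (SE 0.0307, adjusted p 1.14e-11), both short of the fold threshold.

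The serine synthesis genes were highest in IL-2 cells. Phgdh (chr3:98313170-98339990, minus strand), which takes the first step from the glycolytic intermediate 3-phosphoglycerate, had 93.1, 96.1 and 94.0 FPKM in cocktail CD44loCD62L+, 166, 164 and 168 FPKM in cocktail CD44+CD62L+ and 155, 155 and 157 FPKM in cocktail CD44+CD62L- libraries. IL-2 libraries had 257, 259.9 and 263 FPKM, and naive libraries 63.5, 64.0 and 61.3 FPKM. The 5 populations were apart. The log2 fold change of Phgdh was -0.74 (SE 0.0169, adjusted p 1.01e-13) in cocktail CD44+CD62L- against IL-2 cells and -0.81 (SE 0.0169, adjusted p 8.82e-14) in cocktail CD44loCD62L+ against CD44+CD62L+ cells, by limma, both short of the fold threshold. In IL-2 against naive cells Phgdh rose by 2.03 (adjusted p 5.19e-19).

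Psat1 (chr19:15904678-15947337, minus strand), the aminotransferase of the next step, had 40.7, 40.1 and 39.5 FPKM in cocktail CD44loCD62L+, 86.3, 86.3 and 88.5 FPKM in cocktail CD44+CD62L+ and 84.6, 84.3 and 87.8 FPKM in cocktail CD44+CD62L- libraries. IL-2 libraries had 112, 114 and 116 FPKM and naive libraries 16.6, 16.1 and 16.2 FPKM. The cocktail CD44+ populations overlapped with each other and with no others. In cocktail CD44loCD62L+ against CD44+CD62L+ cells the log2 fold change was -1.10 (SE 0.0199, adjusted p 2.36e-14, limma), which left 0.460 of the level. Against naive it was 1.25 in cocktail CD44loCD62L+, 2.35 in cocktail CD44+CD62L+, 2.32 in cocktail CD44+CD62L- and 2.73 in IL-2 cells. Psph, the phosphatase of the last step, moved less, with means of 28.1, 32.4, 33.8 and 40.2 FPKM in cocktail CD44loCD62L+, CD44+CD62L+, CD44+CD62L- and IL-2 cells and 22.3 FPKM in naive cells. Psph shares 452 exon bases, 10.4% of its own, with Cct6a on the other strand.

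Serine hydroxymethyltransferases pass a carbon unit of serine to folate, Shmt1 in the cytosol and Shmt2 in mitochondria. Shmt1 (chr11:60788104-60811718, minus strand) had 8.99, 9.86 and 8.61 FPKM in cocktail CD44loCD62L+, 14.5, 13.8 and 13.4 FPKM in cocktail CD44+CD62L+ and 13.8, 12.5 and 13.6 FPKM in cocktail CD44+CD62L- libraries. IL-2 libraries had 46.4, 46.4 and 47.1 FPKM, and naive libraries 5.37, 5.32 and 5.07 FPKM. Every IL-2 library stood above every other library, and the 2 cocktail CD44+ populations overlapped. Its exons share 184 bases, 4.74% of them, with Smcr8 on the other strand. Shmt1 fell by 1.74 on the log2 scale (SE 0.0453, adjusted p 3.55e-13, limma) in cocktail CD44+CD62L- against IL-2 cells, to 0.285 of the IL-2 level. Shmt2 averaged 53.6 ± 0.730 FPKM in cocktail CD44loCD62L+, 84.9 ± 2.08 in cocktail CD44+CD62L+, 72.1 ± 1.83 in cocktail CD44+CD62L-, 99.0 ± 0.548 in IL-2 and 61.3 ± 0.892 in naive cells (SD, n = 3 each). Cocktail CD44loCD62L+ cells were thus below naive cells for Shmt2 (log2 fold change -0.19, adjusted p 8.01e-07, limma).

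The 2 mitochondrial folate enzymes next in line were not highest in IL-2 cells, unlike Shmt1. Mthfd2 (chr6:83305691-83325908, minus strand), an enzyme low in most adult tissue and high in dividing cells, had 39.6, 39.3 and 37.6 FPKM in cocktail CD44loCD62L+, 62.9, 63.4 and 64.4 FPKM in cocktail CD44+CD62L+ and 57.9, 57.4 and 56.9 FPKM in cocktail CD44+CD62L- libraries. IL-2 libraries had 57.6, 57.7 and 57.4 FPKM and naive libraries 17.6, 15.8 and 16.5 FPKM. Cocktail CD44+CD62L- and IL-2 libraries overlapped (adjusted p 0.899), while cocktail CD44loCD62L+ were below CD44+CD62L+ libraries (log2 fold change -0.70, SE 0.0306, adjusted p 1.87e-10, limma).

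Mthfd1l (chr10:3973118-4167081, plus strand), which releases formate, had 61.0, 62.6 and 62.2 FPKM in cocktail CD44loCD62L+, 60.6, 60.5 and 60.5 FPKM in cocktail CD44+CD62L+ and 62.3, 61.0 and 63.5 FPKM in cocktail CD44+CD62L- libraries. IL-2 libraries had 47.4, 47.3 and 45.5 FPKM, and naive libraries 25.7, 24.9 and 25.2 FPKM. The 9 cocktail libraries spanned only 60.5 to 63.5 FPKM and all lay above IL-2 libraries. The log2 fold change was 0.41 (SE 0.0189, adjusted p 1.6e-10) in cocktail CD44+CD62L- against IL-2 cells, and 1.26 (SE 0.0189, adjusted p 4.85e-16) in cocktail CD44loCD62L+ against naive cells, by limma. It was the 1 enzyme of 11 that did not pass limma's adjusted p in cocktail CD44loCD62L+ against CD44+CD62L+ cells (0.03, adjusted p 0.146). The other 10 were lower (background 36.9%).

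Proline and cysteine enzymes complete the class. Aldh18a1, which starts proline synthesis from glutamate, averaged 28.3, 35.6, 35.6 and 37.3 FPKM in cocktail CD44loCD62L+, CD44+CD62L+, CD44+CD62L- and IL-2 cells and 21.1 FPKM in naive cells. Pycr1, which ends it in mitochondria, reached a mean of 1.20 FPKM in IL-2 cells and 0.233 to 0.549 FPKM elsewhere. Cth, which makes cysteine from cystathionine, averaged 0.959 ± 0.120 FPKM in cocktail CD44+CD62L+ and 1.19 ± 0.0734 FPKM in cocktail CD44+CD62L- cells (SD, n = 3 each). The other 3 populations had 0.145 FPKM or less. Cth was 0.95 higher on the log2 scale in cocktail CD44+CD62L- than in IL-2 cells (adjusted p 1.55e-09, limma), short of the fold threshold.

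Among the 9 transporters, the large neutral amino acid carrier Slc7a5 was the only one called in a comparison among cultured cells. Slc7a5 (chr8:121881150-121907694, minus strand) imports leucine and other large neutral amino acids as a dimer with the chaperone chain Slc3a2. It had 37.6, 36.2 and 38.1 FPKM in cocktail CD44loCD62L+, 78.5, 77.2 and 76.9 FPKM in cocktail CD44+CD62L+ and 69.7, 66.9 and 66.4 FPKM in cocktail CD44+CD62L- libraries. IL-2 libraries had 85.2, 83.7 and 84.7 FPKM and naive libraries 16.1, 16.4 and 17.1 FPKM. All 5 populations were apart. In cocktail CD44loCD62L+ against CD44+CD62L+ cells the log2 fold change was -1.03 (SE 0.0244, adjusted p 2.89e-13, limma), with 0.482 of the level, and the call was lost after quantile normalization (-0.98) and with 5 FPKM added before the logarithm (-0.96). Against naive cells it was 1.13 in cocktail CD44loCD62L+, 2.17 in cocktail CD44+CD62L+, 1.97 in cocktail CD44+CD62L- and 2.29 in IL-2 cells. Slc3a2 spanned less, with means of 53.4, 67.3, 64.3 and 67.5 FPKM in cocktail CD44loCD62L+, CD44+CD62L+, CD44+CD62L- and IL-2 cells and 47.0 FPKM in naive cells.

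Slc38a2 (chr15:96687392-96699730, minus strand), a sodium-coupled carrier of glutamine and small neutral amino acids, was the only gene of the list called lower than naive; after quantile normalization Ddit4 was called too. It had 45.8, 46.8 and 46.1 FPKM in cocktail CD44loCD62L+, 45.6, 44.8 and 46.3 FPKM in cocktail CD44+CD62L+ and 43.8, 44.3 and 43.2 FPKM in cocktail CD44+CD62L- libraries. IL-2 libraries had 33.2, 32.5 and 33.0 FPKM, and naive libraries 74.4, 73.8 and 74.4 FPKM. Naive cells were the highest and IL-2 cells the lowest, without overlap. The log2 fold change in IL-2 against naive cells was -1.15 (SE 0.0146, adjusted p 4.13e-17, limma), and in cocktail CD44+CD62L- against IL-2 cells 0.40 (adjusted p 1.28e-11).

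Slc1a4 was low in every population. Its levels were 1.75, 1.72 and 1.86 FPKM in cocktail CD44loCD62L+, 3.47, 3.97 and 3.81 FPKM in cocktail CD44+CD62L+, 3.65, 3.53 and 3.90 FPKM in cocktail CD44+CD62L-, 1.57, 1.71 and 1.74 FPKM in IL-2 and 0.289, 0.128 and 0.213 FPKM in naive libraries. Cocktail CD44loCD62L+ and IL-2 libraries overlapped, as did the 2 cocktail CD44+ populations. Slc1a5, the main glutamine carrier of many dividing cells, stayed between means of 121 and 132 FPKM in all 5 populations, naive included. Slc38a1, a second glutamine carrier, averaged 33.2 to 42.0 FPKM and Slc7a6, an exchanger of cationic and neutral amino acids, 15.3 to 20.4 FPKM, with Slc7a6 highest in naive cells. Slc7a1, which imports arginine and lysine, averaged 14.5 FPKM in cocktail CD44loCD62L+, 20.5 to 22.8 FPKM in the other 3 cultured populations and 12.4 FPKM in naive cells. By adjusted p alone 3 transporters were higher and 4 lower in cocktail CD44+CD62L- against IL-2 cells (background 40.6% and 43.7%), and 5 and 2 after quantile normalization.

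The 12 cytosolic tRNA synthetases were all measured well above 5 FPKM. Aars (chr8:111033144-111057664, plus strand), which loads alanine, had 24.0, 24.2 and 23.3 FPKM in cocktail CD44loCD62L+, 40.6, 39.6 and 41.3 FPKM in cocktail CD44+CD62L+ and 42.4, 42.6 and 42.1 FPKM in cocktail CD44+CD62L- libraries. IL-2 libraries had 46.7, 46.2 and 47.4 FPKM, and naive libraries 10.8, 11.3 and 11.1 FPKM. No populations overlapped. Against naive its log2 fold change was 1.04 in cocktail CD44loCD62L+ (adjusted p 5.79e-15), 1.79 in cocktail CD44+CD62L+ (1.35e-17), 1.85 in cocktail CD44+CD62L- (9.6e-18) and 1.99 in IL-2 cells (3.12e-18), by limma. Exons of Aars share 1326 bases, 14.3%, with Exosc6 on the same strand, and Exosc6 averaged 12.2, 19.9, 18.4 and 37.1 FPKM in cocktail CD44loCD62L+, CD44+CD62L+, CD44+CD62L- and IL-2 cells and 25.5 FPKM in naive cells.

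All 12 synthetases were lower in cocktail CD44loCD62L+ than in CD44+CD62L+ cells by limma's adjusted p (background 36.9%), with log2 fold changes from -0.74 (Aars) to -0.06 (Wars, a sign that turned after quantile normalization) and a median of -0.35. Mars and Cars, for methionine and cysteine, both had -0.70. In cocktail CD44+CD62L- against IL-2 cells 10 of 12 were lower by the same adjusted p (background 43.7%), from -0.63 (Tars, threonine) to -0.14 (Aars and Eprs, the enzyme for glutamate and proline). Sars, for serine, was higher, at 62.9 ± 0.541 FPKM in cocktail CD44+CD62L- and 48.1 ± 0.771 FPKM in IL-2 cells (0.38, adjusted p 2.32e-11), and so was Wars, for tryptophan, at 49.7 ± 0.577 FPKM in cocktail CD44+CD62L- and 40.4 ± 0.0492 FPKM in IL-2 cells (0.29, adjusted p 4.48e-10; SD, n = 3 each). Wars was also the synthetase with the most negative log2 fold change in cocktail CD44+CD62L+ against CD44+CD62L- cells (-0.18, adjusted p 8.82e-07). Gars, for glycine, had the highest mean FPKM of the 12, at 87.0, 111, 108 and 132 FPKM in cocktail CD44loCD62L+, CD44+CD62L+, CD44+CD62L- and IL-2 cells and 50.5 FPKM in naive cells.

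The listed synthetases can be set beside the other synthetase genes, with no test between the lists. The median log2 fold change of the 12 genes was 0.22 in cocktail CD44loCD62L+, 0.62 in cocktail CD44+CD62L+, 0.71 in cocktail CD44+CD62L- and 0.92 in IL-2 cells. For 11 other cytosolic synthetase and scaffold genes it was 0.17, 0.41, 0.47 and 0.61 in the same 4 populations. For 17 mitochondrial synthetases, which are separate genes with names ending in 2, it was -0.33, -0.25, -0.31 and -0.03. By adjusted p alone 12 of 12 of the listed cytosolic genes were higher in IL-2 than in naive cells (background 46.9%), beside 10 of 11 other cytosolic and 7 of 17 mitochondrial genes, with 7 mitochondrial genes lower (background 44.9%). By adjusted p alone 11 of 17 mitochondrial genes were lower in each cocktail population (background 45.4% to 45.5%). Higher were 2 in cocktail CD44loCD62L+, 4 in CD44+CD62L+ and 5 in CD44+CD62L- cells (background 43.2% to 45.2%). On the call rule 0 mitochondrial genes were lower in IL-2 cells, and only Ears2, for mitochondrial glutamate, was lower in each cocktail population. It was at 3.66, 3.65 and 3.72 FPKM in cocktail CD44loCD62L+, CD44+CD62L+ and CD44+CD62L- cells and 9.94 FPKM in naive cells.

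**Figure D4:**
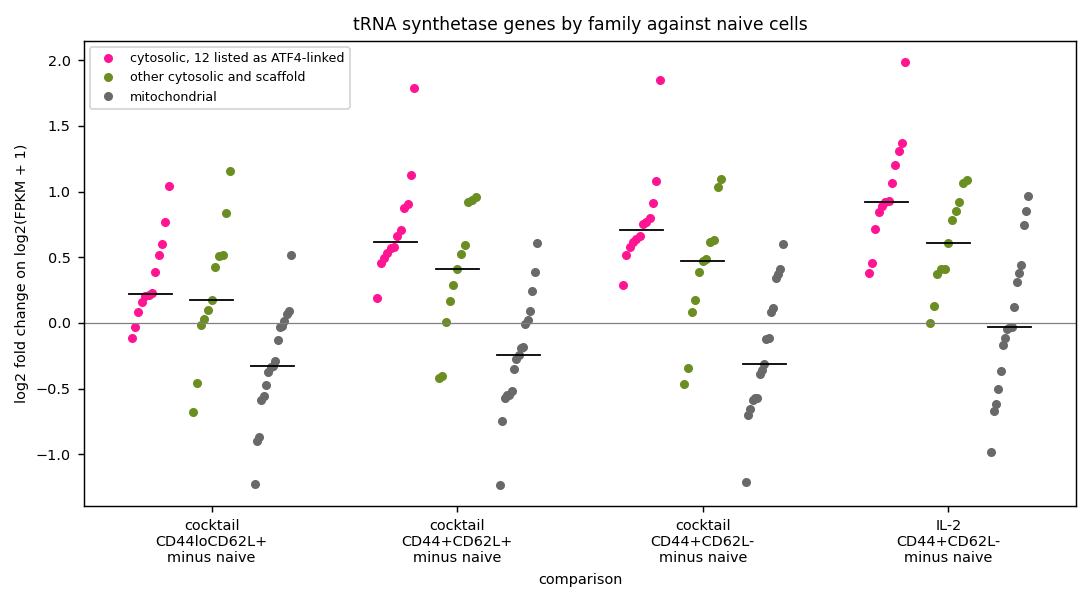
Log2 fold change against naive cells on log2(FPKM + 1) for 12 listed cytosolic synthetases, 11 other cytosolic synthetase and scaffold genes and 17 mitochondrial synthetases in 4 cultured populations. Points are genes and black lines medians; both cytosolic groups lie mostly above 0 and the mitochondrial group is centred at or below it.

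The comparison of cocktail CD44+CD62L- with IL-2 cells and that of cocktail CD44loCD62L+ with CD44+CD62L+ cells share no libraries. Both use sorts of the cocktail condition, so 1 is not a replicate of the other. Their directions are set side by side by adjusted p alone. Proliferation genes were lower in both, 19 of 20 in the first and 20 of 20 in the second, and their part was not tested. Of the 38 tested genes of the list, 22 were lower in both, against 24.9% of all tested genes. They are 22 of the 23 lower in the first and 22 of the 32 lower in the second. Much of this overlap follows from those counts. A group of 7 was higher in the cocktail than in IL-2 and lower in CD44loCD62L+ than in CD44+CD62L+ cells: Atf5, Trib3, Asns, Cth, Slc1a4, Sars and Wars (background 8.1%). Mthfd1l, Slc1a5 and Slc38a2 were higher in the first and past the threshold in neither direction in the second. Ddit3 alone was higher in both (background 23.5%).

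Genes with the TGATGNAA element shown above can be set beside those without it, as a description of 1 chosen list. Of the 10 tested genes with it, 10 had a log2 fold change below 0 in cocktail CD44loCD62L+ against CD44+CD62L+ cells (median -0.54), and of 19 without it 15 did (median -0.30). Against naive cells the medians were 0.61 with and 0.41 without it in cocktail CD44loCD62L+, 1.16 and 0.73 in cocktail CD44+CD62L+, 1.06 and 0.73 in cocktail CD44+CD62L- and 1.23 and 0.71 in IL-2 cells. In cocktail CD44+CD62L- against IL-2 cells 4 of the 10 were above 0 (median -0.21), as were 6 of the 19 (median -0.07). The 4 were Trib3, Chac1, Asns and Slc1a4, and the 5 synthetases and Pycr1 were below 0; the sign of Chac1 turned after quantile normalization.

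Other genes of the pathway, from lists that hold none of the 39, gave these counts on the call rule. For cocktail CD44+CD62L- against IL-2 cells the background over all tested genes was 4.64% higher and 3.2% lower. By adjusted p alone that background was 40.6% higher and 43.7% lower. In this comparison 3 of 9 other ATF4 partners and targets were higher and 0 lower (median 0.41). They include Stc2, a secreted stress protein, at 29.2 FPKM in cocktail CD44+CD62L- and 5.54 FPKM in IL-2 cells (2.21, adjusted p 2.05e-13, limma), and Eif4ebp1, which restrains cap-dependent translation, at 63.4 and 25.5 FPKM in the same 2 populations (1.28, adjusted p 2.49e-11). Of 16 other folate and carbon-unit genes, 0 were higher and 3 lower (median -0.47), with the glycine-forming enzyme Gcat at 8.44 FPKM in cocktail CD44+CD62L- and 37.0 FPKM in IL-2 cells and the cytosolic folate enzyme Mthfd1 at 21.7 and 45.9 FPKM. Of 18 genes of amino acid sensing by mTORC1, 1 was higher: Sesn3, a sestrin like Sesn2, at 43.3 FPKM in cocktail CD44+CD62L- and 14.7 FPKM in IL-2 cells. None of 16 genes of eIF2, its kinases, exchange factor and phosphatase was called in either direction (median -0.31); by limma's adjusted and by its unadjusted p under 0.05 alone 1 was higher and 14 lower. Of 11 other amino acid transporters 1 was higher and 1 lower, and of 17 other amino acid and glutathione enzymes only the spermidine synthase Srm was called, at 38.0 FPKM in cocktail CD44+CD62L- and 90.8 FPKM in IL-2 cells. No gene was called among 11 other cytosolic and 17 mitochondrial synthetase genes, where limma's adjusted and unadjusted p alone gave 2 higher and 7 lower, and 3 higher and 12 lower.

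In cocktail CD44loCD62L+ against CD44+CD62L+ cells 15 of 20 proliferation genes were called lower (background 2.26%) and 0 higher (background 0.418%), with a median of -1.35. Of the pathway lists, only Tyms, which makes thymidylate from a folate carbon unit, and the cationic amino acid carrier Slc7a3 were called, both lower. Tyms had means of 8.72 FPKM in cocktail CD44loCD62L+ and 22.6 FPKM in cocktail CD44+CD62L+ cells, and Slc7a3 1.99 and 5.02 FPKM. The median was -0.22 for the folate list, -0.16 for other ATF4 partners, -0.08 for the eIF2 list and 0.03 for amino acid sensing, against 0 over all tested genes.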

How the data were processed

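The FPKM values are those that the authors deposited, 1 column per library. Per the submitters' processing notes they used TopHat2 2.0.9, Cuffdiff 2.1.1 and the mouse build mm10; annotation, settings, filters and strand use: not given in the sources used here. FPKM sums were 669341 to 781949 per library. Low values were tested for whole multiples of 1 read in 15 pairs of replicate libraries. At the best relative scale found for each pair, 48.4% to 53.8% of the ratios came within 0.05 of a whole number. The 10% expected by chance holds for 1 fixed scale, not for the best of many. On these shares reads were not recovered, and depth is unknown. The entries at 0 in all libraries number 6039, Eef1a1 among them, so a 0 can be a failed estimate and a gene is only said to be listed at 0.

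Values were taken to log2(FPKM + 1), and 11242 genes whose mean reached 1 FPKM in a population entered a model in limma 3.58.1 under R 4.3.3 (population as the only term, all 15 libraries, eBayes with trend), with 7 comparisons. Adjusted p-values are from limma over all tested genes. The added 1 FPKM understates fold changes of low genes. With 3 libraries on each side an exact permutation p cannot go below 0.1. Fits were tested on simulated data. Members and gene lists were chosen with earlier results of these data known. Values of every library are given for members called among cultured populations and, in each comparison, for up to 5 called members with the highest and 5 with the lowest fold change and a mean of at least 5 FPKM; Atf4 and Slc1a4 were added after their values were seen. Up to 4 genes per other list are named. Gene positions and exon overlaps come from a GENCODE annotation of GRCm38, and promoters from RefSeq (GRCm38.p6). Alternatives were another pseudocount, filter, scaling, set of libraries, replicate block, variance setting or fold minimum, and leaving out each library.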

Additional observations from a re-analysis of the deposited data

How the results depend on the processing

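Counts of called genes depended mostly on the fold threshold and the value added before the logarithm. Without a minimum fold the counts higher and lower were 11 and 23 for cocktail CD44+CD62L- against IL-2 cells, 10 and 9 for cocktail CD44+CD62L+ against CD44+CD62L- cells and 2 and 32 for cocktail CD44loCD62L+ against CD44+CD62L+ cells. Against naive cells they were 30 and 6 for cocktail CD44loCD62L+, 34 and 4 for cocktail CD44+CD62L+, 34 and 3 for cocktail CD44+CD62L- and 32 and 5 for IL-2 cells. With 0.1 FPKM added, 5 genes were higher (Cth and Slc1a4 gained) and 2 lower (Pycr1 gained) in cocktail CD44+CD62L- against IL-2 cells, and 5 were lower (Chac1, Cth and Slc1a4 gained) in cocktail CD44loCD62L+ against CD44+CD62L+ cells. With 5 FPKM added those counts were 1 higher and, in the second comparison, 1 lower, and 9 were higher in cocktail CD44+CD62L- against naive cells. After quantile normalization 1 gene was lower in cocktail CD44loCD62L+ against CD44+CD62L+ cells, 2 in IL-2 and 1 in cocktail CD44+CD62L- against naive cells, with Ddit4 gained in both of the last comparisons. That scaling put the median of all genes against naive at -0.11 in both cocktail CD44+ populations.

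Leaving out 1 library at a time gave 2 to 3 genes higher in cocktail CD44+CD62L- against IL-2 cells, and 13 to 15 higher than naive in cocktail CD44+CD62L- and in cocktail CD44+CD62L+ cells; the other 11 counts did not move. The gene and comparison pairs picked by the naming rule, all called in the main fit, gave 675 values over the alternatives. Only another added value, another scaling or leaving out a compared library could change a fold change, so many fold changes were fixed beforehand. Of the 675 values, 670 kept their direction and side of the threshold, 5 lost the call and 0 reversed. The 5 were Atf5 (0.93) and Trib3 (0.73) with 5 FPKM added and Trib3 without IL-2 replicate 1 (0.96) in cocktail CD44+CD62L- against IL-2 cells, and Slc7a5 with 5 FPKM added (-0.96) and after quantile normalization (-0.98) in cocktail CD44loCD62L+ against CD44+CD62L+ cells. The cause was not tested. Other genes lost calls against naive cells with 5 FPKM added and after quantile normalization, as given beside those calls; Chac1 also lost its call in cocktail CD44+CD62L- cells without their replicate 1, and a minimum of 5 FPKM left Chac1, Cth and Slc1a4 untested. The replicate block changed no call, with 3 genes higher and 1 lower in cocktail CD44+CD62L- against IL-2 cells as without it. Same-numbered libraries of different populations had correlations of -0.243 to 0.187, with 2 of 30 pairs over 0.1, so the numbers do not pair them.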

Other observations

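Regulators around the listed genes also differed from naive cells, each comparison sharing the naive libraries. Eif2ak2, the eIF2 kinase that binds double-stranded RNA, averaged 32.0 FPKM in cocktail CD44loCD62L+, 31.4 in cocktail CD44+CD62L+, 33.5 in cocktail CD44+CD62L- and 32.9 in IL-2 cells, against 10.3 FPKM in naive cells. Ppp1r15a, which helps to dephosphorylate eIF2, went the other way, at 13.0, 9.09, 9.72 and 11.0 FPKM in the same 4 populations and 31.0 FPKM in naive cells. Eif2ak3, the eIF2 kinase of the endoplasmic reticulum, was called higher in IL-2 cells, at 40.0 FPKM against 12.2 FPKM in naive cells. Sesn1, a sestrin like Sesn2, was called lower in all 4, at 30.8 FPKM in cocktail CD44loCD62L+, 22.7 in cocktail CD44+CD62L+, 25.1 in cocktail CD44+CD62L- and 12.9 in IL-2 cells, against 66.5 FPKM in naive cells. No cause was tested.

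Outside the listed enzymes, Odc1, which starts polyamine synthesis, averaged 96.0 FPKM in cocktail CD44loCD62L+, 140 in cocktail CD44+CD62L+, 132 in cocktail CD44+CD62L- and 206 FPKM in IL-2 cells, against 27.5 FPKM in naive cells. Stc2 had means of 34.7, 25.0, 29.2 and 5.54 FPKM in the same 4 populations and 0.245 FPKM in naive cells. Unlike Asns, Trib3 and Slc1a4, it was thus not lower in the CD44loCD62L+ than in the CD44+CD62L+ cells of the cocktail.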
